A study of Mus musculus with 13 samples.

Results

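The regions described here lie nearest to genes of the Zfp series, the mouse genes named Zfp and a number that encode zinc finger proteins. They were chosen by name from 3 tables of regions with a difference in 5-hydroxymethylcytosine (5hmC) between groups of knee cartilage samples: every region on chromosomes 1 to 19 whose nearest gene, as the authors gave it, is a Zfp gene, leaving out the block from 145 to 148.5 Mb of chromosome 4. The rule used no measured value, although a table lists a region only where its groups differed. It kept 423 of 43378 regions in WT_dmm against WT_sham, 698 of 65969 in MUT_dmm against WT_dmm and 727 of 72486 in MUT_dmm against WT_sham. They belong to 196, 235 and 244 genes in that order of tables, of 381 such genes in RefSeq. The other autosomal regions of the same tables, 41480, 60890 and 66638 in number, serve as the background.

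MUT_dmm samples came from TET-/- mice and WT_dmm samples from TET1+/+ mice, both after destabilisation of the medial meniscus (DMM), surgery in which, per the labels' protocol, that meniscus was taken out. It leaves the knee unstable and is a standard mouse model of osteoarthritis. In WT_sham samples, from TET1+/+ mice, the joint was opened only, and the labels put each control on the opposite leg. All groups share the strain B6;129S4, male sex and sampling 6 weeks after surgery, and the age is given as 3 to 4 months in one label and as 4 to 6 months in another. Each group has 3 samples in the labels, besides a background control. That control and the mutant sham knees were not analysed here, so the values include any background and the genotypes are not compared without DMM. The labels name cartilage, the design text speaks of the joint, and a DNA mark listed only where groups differ gives no check of the tissue.

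5hmC is made when TET enzymes, of which TET1 is one, oxidise 5-methylcytosine, and it is known as an intermediate of DNA demethylation and as a mark of active gene bodies and enhancers. Most Zfp genes encode proteins with arrays of C2H2 zinc fingers that read DNA. Many also carry a KRAB domain, which recruits the TRIM28 repressor to transposons and imprinted loci, and these genes lie in dense clusters of similar copies. The assay, reduced representation hydroxymethylation profiling, reads 5hmC only at CCGG, the site of the enzyme MspI: glucose placed on 5hmC protects a fragment end from a repeated digest.

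The promoter windows of 5 Zfp genes are shown because named regions of the MUT_dmm comparisons overlap them, 4 of them higher in MUT_dmm and that of Zfp58 lower. Each run reads 5′ to 3′ on the gene's strand, from 250 bases before to 50 after the RefSeq start, and capitals mark CCGG, the only places where the assay can read 5hmC. On GRCm38.p6, the assembly with the coordinates of mm10, they lie at chr13:119790409-119790708 (Zfp131), chr13:23369159-23369458 (Zfp322a), chr4:62208497-62208796 (Zfp37), chr17:33033332-33033631 (Zfp763) and chr13:67500473-67500772 (Zfp58), all on the minus strand.
Zfp131: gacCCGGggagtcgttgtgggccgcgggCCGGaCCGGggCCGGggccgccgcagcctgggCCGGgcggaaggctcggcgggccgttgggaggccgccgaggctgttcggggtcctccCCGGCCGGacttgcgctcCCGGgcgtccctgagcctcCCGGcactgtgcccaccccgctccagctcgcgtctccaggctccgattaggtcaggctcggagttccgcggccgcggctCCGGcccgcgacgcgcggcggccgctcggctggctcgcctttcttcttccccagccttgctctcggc
Zfp322a: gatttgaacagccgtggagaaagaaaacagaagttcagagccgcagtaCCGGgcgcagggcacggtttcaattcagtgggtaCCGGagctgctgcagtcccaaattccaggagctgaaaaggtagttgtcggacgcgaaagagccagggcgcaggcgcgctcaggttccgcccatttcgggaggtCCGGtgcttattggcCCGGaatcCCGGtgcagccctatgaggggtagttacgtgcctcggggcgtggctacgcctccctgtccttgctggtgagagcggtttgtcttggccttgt
Zfp37: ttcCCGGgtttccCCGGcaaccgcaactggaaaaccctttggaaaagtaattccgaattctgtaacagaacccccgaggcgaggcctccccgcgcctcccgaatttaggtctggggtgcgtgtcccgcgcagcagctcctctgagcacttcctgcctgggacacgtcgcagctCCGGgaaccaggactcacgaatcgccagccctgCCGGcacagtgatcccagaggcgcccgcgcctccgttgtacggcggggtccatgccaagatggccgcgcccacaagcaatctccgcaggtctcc
Zfp763: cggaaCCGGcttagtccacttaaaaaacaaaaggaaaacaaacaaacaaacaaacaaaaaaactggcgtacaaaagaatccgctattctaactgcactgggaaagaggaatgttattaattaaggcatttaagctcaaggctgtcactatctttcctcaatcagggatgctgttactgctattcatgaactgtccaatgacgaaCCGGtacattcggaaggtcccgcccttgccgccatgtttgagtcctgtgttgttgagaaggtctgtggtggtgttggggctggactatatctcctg
Zfp58: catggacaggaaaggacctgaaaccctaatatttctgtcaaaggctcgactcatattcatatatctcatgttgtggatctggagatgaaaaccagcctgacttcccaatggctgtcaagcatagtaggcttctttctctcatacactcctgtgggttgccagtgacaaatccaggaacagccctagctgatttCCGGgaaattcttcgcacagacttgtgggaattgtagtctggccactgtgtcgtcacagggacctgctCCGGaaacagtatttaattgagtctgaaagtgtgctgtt
The Zfp131 window holds 10 CCGG sites, all inside the changed region, while those of Zfp322a, Zfp37, Zfp763 and Zfp58 hold 5, 4, 2 and 2. CCGG, which reads the same on both strands, occurs in 72.9% of the 399 Zfp windows and in 53.5% of all 31396 autosomal promoter windows of this length. The median number per window was 2 for Zfp genes and 1 for all genes. Among Zfp windows overlapped by a changed region, 38 of 39 held CCGG in MUT_dmm against WT_dmm, 31 of 35 in MUT_dmm against WT_sham and 7 of 9 in WT_dmm against WT_sham.

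Values are the authors' normalized counts, with a scaling of their own in each table, so levels are set side by side only within a table. Each library's values were whole multiples of a single step within 0.02, read as 1 read. Reads in the listed regions ran from 302082 to 7860851 per library, except in the first-listed WT_dmm library, which held 4726 in one table and 52972 in the other and is called near-empty here. A single read of it was worth 15.7 or 9.56 normalized counts, and it stood at 0 in 97.4% and 62.6% of the Zfp regions. It enters every WT_dmm mean unless said to be left out, and lowers the mean where it stands at 0. A pair of the MUT_dmm entries was identical in every region and was counted once in the means, overlaps and limma given here. This leaves 2 distinct MUT_dmm libraries, a deeper one with 3422008 to 5889464 reads and a shallower one with 302082 to 407929. The deposited MUT_dmm means equal the mean of all 3 entries in 100% of regions. The called directions follow those means, so the repeated library weighs more in them. Whether the authors' p-values also count it again is not stated. A changed region is one with an adjusted p under 0.05 in the authors' deposited table. In bulk samples like these, fewer cells with the mark and less of the mark per cell cannot be told apart.

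After DMM in wild-type knees, nearly all changed regions near Zfp genes held more 5hmC signal than in sham knees. Of the 423 listed regions 420 were changed, beside a background of 99.7%, and of these 396 were higher and 24 lower in WT_dmm, beside a background of 93.8% higher and 6.21% lower. The share higher was 94.3% (exact 95% interval 91.6% to 96.3%). At most of these regions the WT_sham level was too low for a loss to be seen, as set out below. The median level was 7.80 normalized counts in WT_dmm and 2.85 in WT_sham, and over the other autosomal regions 7.72 in WT_dmm and 2.82 in WT_sham. The median log2 difference, on the log2(value + 1) scale used throughout, was 1.13 near Zfp genes and 1.14 elsewhere. Level and direction near Zfp genes were thus close to those of the rest of the autosomes.

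The 24 lower regions were the strongly marked ones, with medians of 50.8 in WT_dmm and 81.1 in WT_sham, while the higher regions had medians of 7.68 in WT_dmm and 2.78 in WT_sham. When regions were split into 4 bins of equal size by their WT_sham level, every changed region was higher in the 3 lower bins, up to 4.04 normalized counts, and 76.7% were higher in the top bin, against 75.1% elsewhere. Among the 61 changed regions with a mean over both groups of at least 10 normalized counts, 60.7% were higher, against 63.4% elsewhere.

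Libraries of the same group differed. All 3 WT_dmm libraries lay beyond all WT_sham libraries in the called direction in 8 of 420 regions, 1.90% beside a background of 2.43%. Without the near-empty library the number was 339, or 80.7% beside a background of 81.8%, of which 335 were higher. In limma on all listed regions with Benjamini-Hochberg adjustment, 0 of 423 regions passed an adjusted p of 0.05 (4 had an unadjusted p under 0.05), beside a background of 0.0121%. Without the near-empty library 318 passed as higher and 2 as lower, beside a background of 77.9%. Without the third-listed WT_dmm library the share higher was 66.4% near Zfp genes and 65.2% elsewhere.

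**Figure D1:**
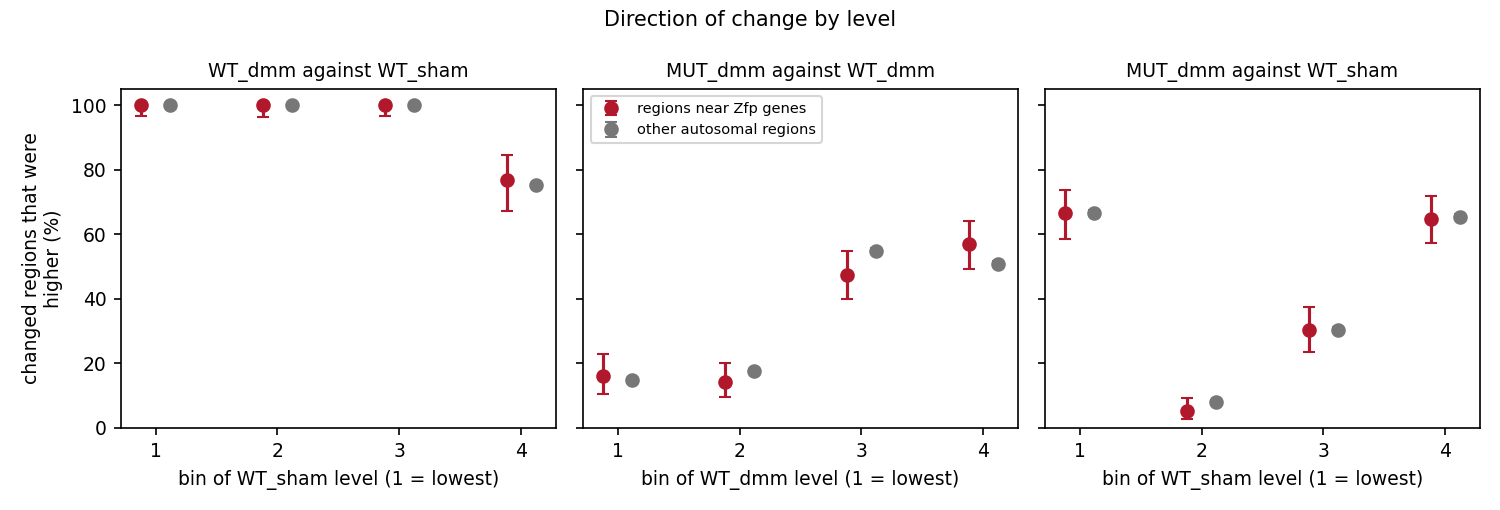
Percent of changed regions that were higher in the first-named group (y axis), by bin of the level in the second-named group (x axis, 4 bins of equal size), near Zfp genes (red) and among other autosomal regions (grey), with exact 95% binomial intervals. In the panel of MUT_dmm against WT_dmm the grey shares are 14.9%, 17.6%, 54.8% and 50.9% and the red ones 16.0%, 14.3%, 47.3% and 56.8%. All changed regions were higher in the 3 lowest bins of WT_dmm against WT_sham, where depth left almost no room to see a loss. In the second bin of MUT_dmm against WT_sham 5.29% near Zfp genes were higher.

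Single genes differed in how many regions lay nearest to them. Of the regions of Zfp521, Zfp781, Zfp709, Zfp97 and Zfp536 given below, only 5, 2, 1, 3 and 3 lay in the gene. Zfp521, a many-finger factor known from fat, bone and cartilage cell differentiation, had 16 higher regions and 0 lower ones in WT_dmm, with median levels of 7.63 in WT_dmm and 2.69 in WT_sham. Zfp781, in a cluster on chromosome 10, had 15 higher and 1 lower. Zfp709 and Zfp97 had 11 each and Zfp536 had 8, all of them higher. Of the 44 genes with at least 3 changed regions, 35 had only higher ones (79.5%, and 78.2% of other genes) and 0 only lower ones.

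Regions named by adjusted p had to have libraries that did not overlap once the near-empty one was left out. Their lack of overlap is thus a condition of this naming rule and not a result. The higher region with the smallest adjusted p among those that met the naming rule lay in Zfp957 at chr14:79239241-79239620. It had 31.35, 61.37 and 57.27 normalized counts in WT_dmm and 30.75, 31.48 and 27.00 in WT_sham, with an adjusted p of 0.00026 in the authors' deposited table. The near-empty library, with 2 reads, lay among the sham values, and the other two WT_dmm libraries lay above all of them. A region in Zfp652 at chr11:95821341-95821720 had 0, 9.34 and 33.32 in WT_dmm and 2.88, 2.86 and 3.59 in WT_sham. Regions nearest Zfp365, Zfp873 and Zfp354c had the same form, with 0 in the near-empty library and the other two above every sham value.

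Only 4 lower regions met the naming rule. Near Zfp52, 807 bases from the gene at chr17:21550841-21551240, WT_dmm had 156.75, 226.79 and 150.98 and WT_sham had 431.81, 253.23 and 404.32. All WT_dmm values lay below all sham values, the log2 difference was -1.02, and limma gave an unadjusted p of 0.0027 and an adjusted p of 0.99994. In Zfp839 at chr12:110855481-110855680, WT_dmm had 62.70, 64.03 and 47.90 and WT_sham 77.84, 78.69 and 87.15, again without overlap. The others were in Zfp687, with 0, 74.71 and 74.97 in WT_dmm and 79.76, 86.56 and 80.83 in WT_sham, and near Zfp780b, where sham values alone ranged over 9.40 to 58.30.

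In mutant DMM knees the direction was mixed, with lower regions in the majority against both wild-type groups. Against WT_dmm, 236 of 690 changed regions were higher in MUT_dmm and 454 lower, 34.2% higher (30.7% to 37.9%) beside a background of 34.5% higher and 65.5% lower. Against WT_sham, 285 of 724 were higher and 439 lower, 39.4% higher (35.8% to 43.0%) beside a background of 42.7% higher and 57.3% lower. Of the listed regions, 690 of 698 and 724 of 727 were changed, beside backgrounds of 98.9% and 99.3%. These comparisons share the MUT_dmm libraries, and each shares a wild-type group with the first, so their values are only set side by side. In the 2 upper bins of level in the wild-type group alone, of 4 bins of equal size, 186 of 358 Zfp regions (52.0%) were higher against WT_dmm and 167 of 355 (47.0%) against WT_sham, beside 52.8% and 47.9% elsewhere.

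Median levels of the higher regions were 35.3 in MUT_dmm and 16.8 in WT_dmm, and 43.2 in MUT_dmm and 20.8 in WT_sham. Those of the lower regions were 2.48 in MUT_dmm and 7.64 in WT_dmm, and 0.37 in MUT_dmm and 9.55 in WT_sham. Against WT_sham, 159 of the 724 regions (22.0%, and 21.8% elsewhere) had 0 reads in both MUT_dmm libraries. The median log2 difference against WT_sham was -1.29 near Zfp genes and -1.03 elsewhere. With regions at 0 set to the 3 reads that a count of 0 allows in the deeper MUT_dmm library, 2.21 normalized counts, the medians were -0.92 and -0.82. Against WT_dmm the median was -0.63 in both sets.

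By bin of the WT_dmm level, 16.0%, 14.3%, 47.3% and 56.8% of Zfp regions were higher in MUT_dmm, against 14.9%, 17.6%, 54.8% and 50.9% elsewhere, with bounds at 5.14, 9.95 and 18.9 normalized counts. By bin of the WT_sham level the shares were 66.5%, 5.29%, 30.2% and 64.7%, against 66.6%, 8.08%, 30.4% and 65.5% elsewhere, with bounds at 5.49, 10.8 and 34.4. In both sets higher regions were scarce in the 2 weakest bins against WT_dmm and in the second bin against WT_sham.

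The distinct libraries did not overlap in 296 of the 690 changed regions of MUT_dmm against WT_dmm, 42.9% beside a background of 41.9%. Of these, 156 were higher and 140 lower. Without the near-empty library there were 527, 161 higher and 366 lower (76.4% beside a background of 77.6%). In limma 0 of 698 regions passed an adjusted p of 0.05 (34 had an unadjusted p under 0.05), beside a background of 0%. Without the near-empty library 44 passed as higher and 55 as lower, beside a background of 15%. Without the third-listed WT_dmm library 52.3% of changed regions were higher, and 53.4% elsewhere.

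Against WT_sham, where the near-empty library has no part, libraries did not overlap in 627 of 724 regions, 222 higher and 405 lower, 86.6% beside a background of 82.7%. In limma 60 regions passed as higher and 325 as lower, 385 of 727 in all or 53.0%, beside a background of 48%. Among regions with a mean over both groups of at least 10 normalized counts 0 passed, with 120 (38.0%) at an unadjusted p under 0.05, beside 0% and 35.8% elsewhere. The count ran from 229 (31.5%, beside 29.2% elsewhere) without the second-listed WT_sham library to 552 (75.9%, beside 71.5%) without the deeper MUT_dmm library, where the remaining MUT_dmm library is taken to vary like the sham group. These p-values measure the spread between libraries that the design text calls biological replicates. In each comparison, all regions entering limma had been listed because the same libraries differed. The limma adjusted p-values, also those of single regions, therefore do not control the error rate and are no independent support.

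Regions at promoter windows were mostly higher in the mutant, near Zfp genes and elsewhere. Windows of any gene count here. In MUT_dmm against WT_dmm 48 of the 690 changed Zfp regions overlapped one. They lay nearest to 48 genes, of which 39 had a Zfp window overlapped. Of the 48 regions 38 were higher in MUT_dmm, a share of 79.2% (65.0% to 89.5%) beside a background of 84.7%. In the rest of the gene the share was 36.7% (32.2% elsewhere), and outside genes it was 23.6% (31.9% elsewhere). Against WT_sham, 32 of 45 promoter regions were higher, 71.1% (55.7% to 83.6%) beside a background of 67.5%. These 45 lay nearest to 44 genes, of which 35 had a Zfp window overlapped. The share was 35.9% in the rest of the gene (35.5% elsewhere) and 39.0% outside (49.2% elsewhere).

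Median levels at promoter windows were also higher in MUT_dmm, at values of 27.4 in MUT_dmm and 14.5 in WT_dmm, and of 69.7 in MUT_dmm and 38.3 in WT_sham. Leaving out any single library, the near-empty one among them, moved the promoter share within 77.1% to 81.2% against WT_dmm and 68.9% to 71.1% against WT_sham. The share of changed Zfp regions that overlapped a promoter window was 6.96% in MUT_dmm against WT_dmm beside a background of 4.67%, 6.22% in MUT_dmm against WT_sham beside 2.44%, and 2.86% in WT_dmm against WT_sham beside 0.866%. In WT_dmm against WT_sham 10 of the 12 promoter regions were higher, beside a background of 70.7%.

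**Figure D2:**
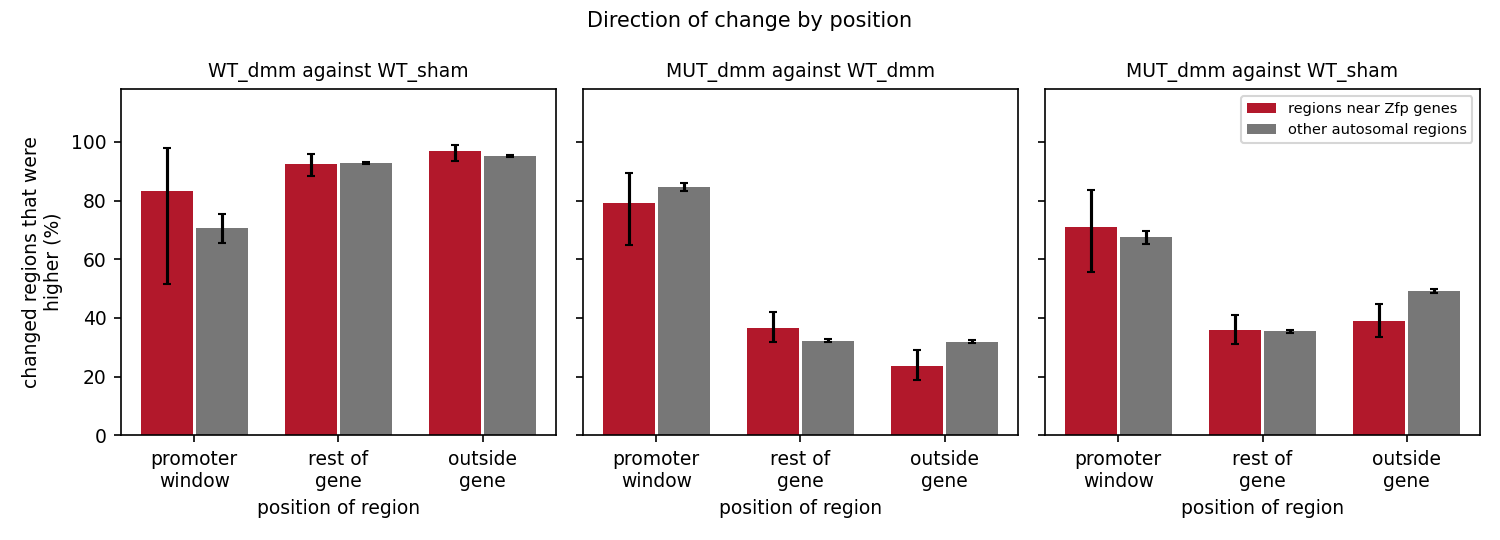
Percent of changed regions that were higher in the first-named group (y axis, from 0), for regions that overlap a promoter window, lie in the rest of a gene or lie outside genes (x axis), near Zfp genes (red) and among other autosomal regions (grey), with exact 95% binomial intervals. Promoter windows are those of any gene. In both MUT_dmm panels the promoter bars stand above the other positions in red and grey alike, at 79.2% and 71.1% near Zfp genes.

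The Zfp131 promoter, whose window is printed above, had 122.97 and 94.47 normalized counts in MUT_dmm and 48.25, 59.04 and 67.68 in WT_sham. Both MUT_dmm values lay above all sham values, the means were 109 ± 20.2 (SD, n = 2) and 58.3 ± 9.73 (SD, n = 3), and limma's log2 difference was 0.89 ± 0.28 (SE) with an adjusted p of 0.045. At the Zfp322a promoter MUT_dmm had 125.92 and 132.26 and WT_sham 70.00, 82.20 and 83.22, with a limma adjusted p of 0.041. An overlapping region of MUT_dmm against WT_dmm had 40.01 and 49.76 in MUT_dmm and 0, 37.61 and 14.00 in WT_dmm, so the groups again did not overlap, by a narrow margin. The Zfp800 promoter had 153.90 and 151.15 in MUT_dmm and 94.39, 107.67 and 106.52 in WT_sham, and that of Zfp563 had 61.85 and 47.24 in MUT_dmm and 23.86, 32.42 and 35.51 in WT_sham. Neither overlapped between groups, and limma's adjusted p was 0.057 for Zfp800 and 0.093 for Zfp563.

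At the Zfp37 promoter MUT_dmm had 56.39 and 67.53 normalized counts and WT_dmm 19.12, 32.34 and 28.61. The Zfp763 promoter had 14.04 and 28.43 in MUT_dmm and 0, 3.01 and 1.83 in WT_dmm. That of Zfp560 had 39.07 and 49.76 in MUT_dmm and 9.56, 25.57 and 18.26 in WT_dmm. In these regions every MUT_dmm value lay above every WT_dmm value, while limma's adjusted p was 0.68 for each. The Zfp58 promoter went the other way, with 0.94 and 3.55 in MUT_dmm and 0, 6.02 and 14.00 in WT_dmm. There the near-empty library lay below both MUT_dmm values and the other two above them. The same promoter had 0, 28.02 and 28.11 in WT_dmm and 12.49, 14.31 and 9.40 in WT_sham in the table of those groups.

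**Figure D3:**
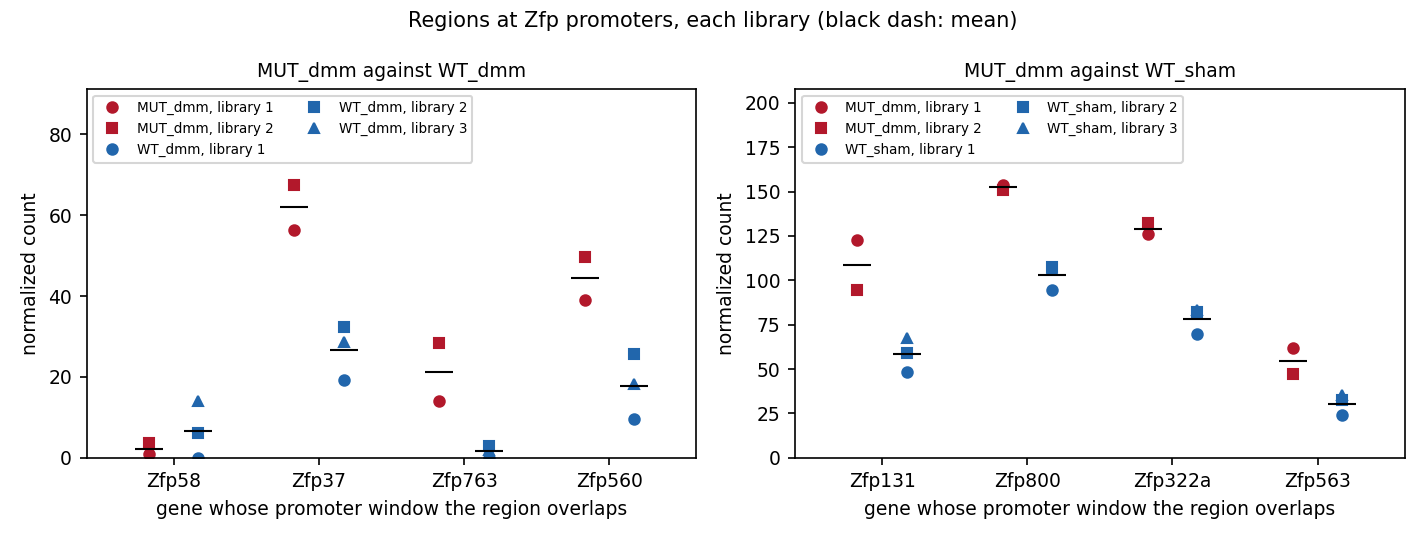
Normalized counts (y axis, from 0) of each library at the regions that overlap the promoter windows of 4 Zfp genes in each MUT_dmm comparison (x axis), MUT_dmm in red left of its wild-type group in blue, black dashes for means. Red lies above blue without overlap at all but Zfp58.

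In WT_dmm against WT_sham, the regions at the promoters of Zfp97, Zfp281, Zfp386 and Zfp808 were all called higher. Zfp281, a repressor and activator known from pluripotent cells, had 0, 14.67 and 15.62 in WT_dmm and 3.20, 2.86 and 4.10 in WT_sham. The near-empty library alone lay below the sham values. At the Zfp386 promoter WT_dmm had 0, 1.33 and 17.70 and WT_sham 2.24, 2.15 and 1.71, so a single WT_dmm library exceeded sham, and without it the means were 0.67 in WT_dmm and 2.03 in WT_sham.

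Zfp791 had the most one-sided record of all Zfp genes in the mutant: 9 of 9 changed regions were higher against WT_dmm and 11 of 11 against WT_sham, none of them with overlapping libraries, and no region near it was listed in WT_dmm against WT_sham. Libraries did not overlap in 41.9% of other autosomal changed regions against WT_dmm and in 82.7% against WT_sham. Among genes with at least 3 changed regions, 3.61% of Zfp genes and 2.94% of other genes had only higher ones against WT_dmm. Against WT_sham these shares were 5.62% and 5.68%. Zfp791 was named for its number of higher regions, so its counts are a picked extreme. The regions near Zfp791 ran from 2.91 kb inside the gene to 18.6 kb upstream of its RefSeq start, on the minus strand of chromosome 8. Only 1 region in each comparison lay in the gene. The region at chr8:85131641-85132160, 8.81 kb upstream, overlapped a promoter window that is not of a Zfp gene. Median levels were 76.1 in MUT_dmm and 18.7 in WT_dmm, and 198 in MUT_dmm and 78.4 in WT_sham. Folds, as ratios of group means with no pseudocount, ran from 1.82 to 45.6 against WT_dmm and from 1.48 to 6.68 against WT_sham.

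At chr8:85129161-85129400, 6.19 kb upstream, Zfp791 had 26.51 and 18.89 normalized counts in MUT_dmm and 3.71, 4.63 and 3.88 in WT_sham. The MUT_dmm values, from 36 and 2 reads, lay several times above the sham values. The limma log2 difference was 2.21 ± 0.54 (SE) with an adjusted p of 0.021. The same region had 8.42 and 7.11 in MUT_dmm (36 and 2 reads) and 0, 0.75 and 0.61 in WT_dmm (0, 1 and 1 reads). Its neighbour at chr8:85125821-85126340 had 63.41 and 88.86 in MUT_dmm and 0, 0.75 and 4.26 in WT_dmm. Its fold of 45.6, the highest of the gene, rests on few WT_dmm reads: it was 203 without the third-listed WT_dmm library and 30.4 without the near-empty one. Against sham knees, 199.55 and 236.18 in MUT_dmm stood against 73.18, 13.89 and 10.82 in WT_sham. The gene lies in the stretch of chromosome 8 from 85 to 100 Mb, where 267 of 478 other changed regions were higher against WT_dmm and 484 of 748 against WT_sham (64.7%).

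**Figure D4:**
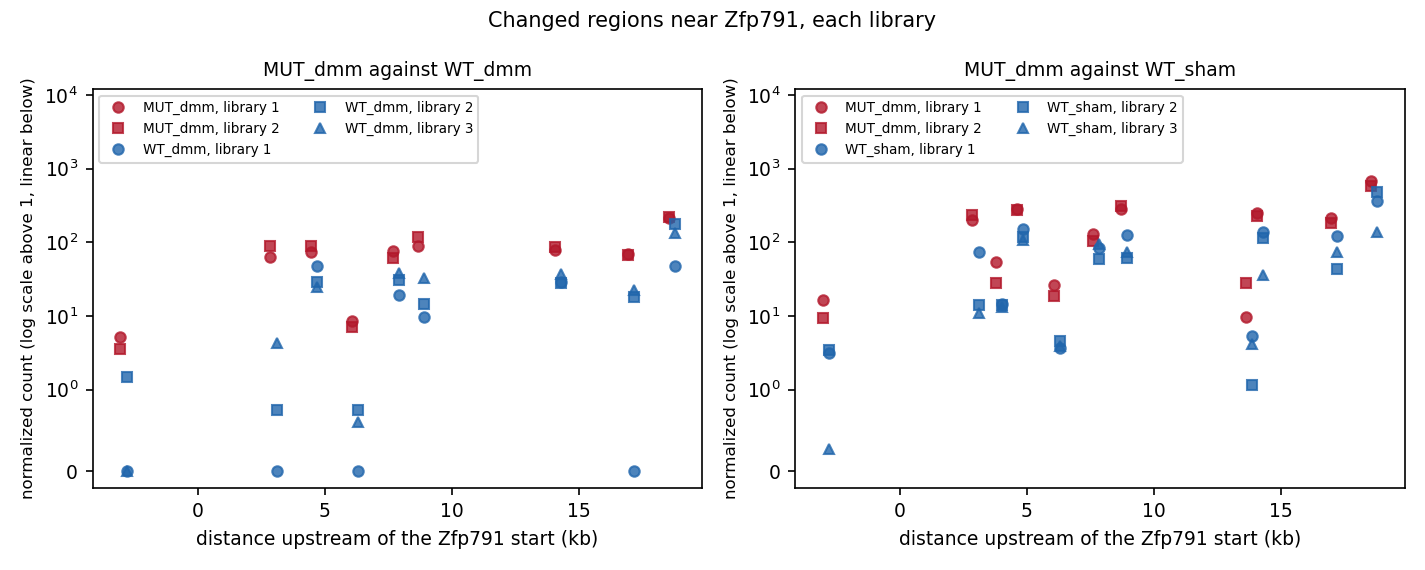
Normalized counts (y axis, log scale above 1 and linear below) of each library at the changed regions near Zfp791, by distance upstream of its start in kb (x axis, negative inside the gene). MUT_dmm (red) lies above its wild-type group (blue) at every region, 9 in the left panel and 11 in the right.

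The developmental list held 12 genes, among them Zfp423, known from fat cell commitment and cerebellar development, Zfp521, Zfp536 and Zfp703. It had changed regions at 12 of 12 genes in each comparison, beside lower shares of all 381 Zfp genes. Those shares were 61.7% in MUT_dmm against WT_dmm, 64.0% in MUT_dmm against WT_sham and 50.9% in WT_dmm against WT_sham. Long genes, and genes far from their neighbours, can be nearest to more regions, and neither was taken into account. The list was also drawn up with earlier results of these data known, so its full coverage may be built in and is no result. In MUT_dmm against WT_dmm 39 of its 122 regions were higher and 83 lower, with a median log2 difference of -0.60, beside -0.63 over other autosomal regions. In MUT_dmm against WT_sham 50 were higher and 84 lower (median -1.42, beside -1.03), and in WT_dmm against WT_sham 59 were higher and 1 lower (median 1.22, beside 1.14). Zfp536 had 12 lower and 2 higher regions against WT_dmm and 14 lower and 4 higher against WT_sham. Zfp703 had 13 lower and 3 higher against WT_dmm. Zfp608 had 10 lower and 1 higher against WT_dmm but 2 lower and 4 higher against WT_sham. Of the regions against WT_dmm, 7 of Zfp536, 3 of Zfp703 and 3 of Zfp608 lay in the gene.

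Zfp423 held the most regions and changed both ways. It had 11 higher and 11 lower in MUT_dmm against WT_dmm, 9 higher and 21 lower in MUT_dmm against WT_sham, and 2 higher in WT_dmm against WT_sham. Within the gene at chr8:87854621-87855080, MUT_dmm had 17.67 and 18.89 and WT_sham 49.31, 55.57 and 48.27. Both MUT_dmm values, from 24 and 2 reads, were well below sham. The limma log2 difference was -1.43 ± 0.32 (SE) with an adjusted p of 0.016. At chr8:87898561-87899080 in the same gene, the order was turned round, with 25.04 and 18.89 in MUT_dmm (34 and 2 reads) and 3.18, 6.95 and 5.83 in WT_sham (limma adjusted p 0.042).

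Other members of the list had single regions without overlap, with 0 to 4 reads per MUT_dmm library in those lower in MUT_dmm. In Zfp521 MUT_dmm had 2.95 and 0 and WT_sham 15.38, 15.05 and 14.70, with a limma adjusted p of 0.022. The shallower MUT_dmm library adds little here, since its 0 allows up to 28.3 normalized counts, above the sham values at both this region and the next. Near Zfp703, 121097 bases from the gene, MUT_dmm had 1.47 and 0 and WT_sham 7.42, 9.26 and 10.26 (adjusted p 0.015). In Zfp516 a region lower in MUT_dmm, with 0.74 and 9.45 against 15.91, 13.89 and 15.53 in WT_sham, lay in the same gene as a higher one, with 83.21 and 75.58 in MUT_dmm against 44.54, 43.99 and 49.93 in WT_sham. Groups did not overlap in either, and limma's adjusted p was 0.11 for the lower, where each MUT_dmm value was 1 read, and 0.054 for the higher. The Zfp536 region with the smallest p of that gene rested on spread sham values of 78.48, 12.73 and 4.44, against 5.89 and 0 in MUT_dmm, and the groups overlapped.

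The CCCH list (Zfp36, Zfp36l1 and Zfp36l2, which bind AU-rich elements of mRNAs and promote their decay) was carried by Zfp36l2, with 3 higher and 7 lower regions in MUT_dmm against WT_dmm and 3 higher and 6 lower against WT_sham. Its region at chr17:84147701-84148080 had 23.63 and 21.33 in MUT_dmm and 38.24, 46.64 and 43.22 in WT_dmm, below every WT_dmm library, with a limma adjusted p of 0.68. The lists' counts stand beside background shares of 65.5% lower against WT_dmm, 57.3% lower against WT_sham and 93.8% higher in WT_dmm against WT_sham, and no list was tested. The CCCH list's totals were 4 higher and 7 lower against WT_dmm, 3 and 7 against WT_sham, and 1 higher in WT_dmm against WT_sham. Of 12 broadly expressed Zfp genes, such as Zfp143, a promoter-binding factor, and Zfp148, 7 had changed regions against WT_dmm (7 higher, 18 lower), 9 against WT_sham (13 higher, 13 lower) and 6 in WT_dmm against WT_sham (10 higher, 0 lower). Zfp148 alone gave 7 of the 18 lower regions. Of 8 KRAB genes known from transposon or imprint control, such as Zfp809, which silences retroviruses, and Zfp568, which silences a placental Igf2 promoter, 4 had changed regions against WT_dmm (0 higher, 7 lower), 2 against WT_sham (2 higher, 0 lower) and 4 in WT_dmm against WT_sham (5 higher, 0 lower).

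Regions named by the smallest adjusted p against WT_sham were again chosen for libraries without overlap. Among them, Zfp280b stood at 0 in both MUT_dmm libraries, with 10.08, 10.42 and 10.54 in WT_sham at chr10:76039361-76039600. A count of 0 allows up to 2.21 normalized counts in the deeper MUT_dmm library and 28.3 in the shallower, so only the deeper one bears on this region, whose limma adjusted p was 0.0020. Zfp395 had 13.99 and 18.89 in MUT_dmm (19 and 2 reads) and 38.18, 45.15 and 37.45 in WT_sham (limma adjusted p 0.035). Near Zfp42, known as Rex1, a marker of pluripotent cells, MUT_dmm had 104.56 and 103.92 and WT_sham 66.81, 57.89 and 64.36 (adjusted p 0.047). Zfp687 had 105.30 and 85.02 in MUT_dmm and 133.10, 140.08 and 131.76 in WT_sham, without overlap but with an adjusted p of 0.085. Zfp365 had 14 lower regions and 1 higher in MUT_dmm against WT_sham, with medians of 1.84 in MUT_dmm and 15.8 in WT_sham. Only 5 of these lay in the gene. Zfp365 had 0 higher and 4 lower against WT_dmm, and 5 higher in WT_dmm against WT_sham.

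Against WT_dmm the named regions of smallest adjusted p included weakly marked ones. Near Zfp131, at chr13:119795581-119795960, MUT_dmm had 9.83 and 14.22 and WT_dmm 0, 1.5 and 0. In Zfp341 MUT_dmm had 21.29 and 7.11 and WT_dmm 0, 0 and 1.22. Near Zfp503, whose protein is known as a repressor in development, the order was reversed, with 12.40 and 3.55 in MUT_dmm and 19.12, 34.60 and 28.61 in WT_dmm. Zfp664, with 19.65 and 24.88 in MUT_dmm and 28.68, 48.14 and 40.79 in WT_dmm, and Zfp740, with 7.49 and 14.22 in MUT_dmm and 19.12, 21.81 and 31.66 in WT_dmm, were lower too. None of these overlapped between groups, which was a condition of their naming apart from the near-empty library. The limma adjusted p was 0.68 for each of the 5. The shallower MUT_dmm library held 4, 2 and 1 reads at Zfp131, Zfp341 and Zfp503.

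**Figure D5:**
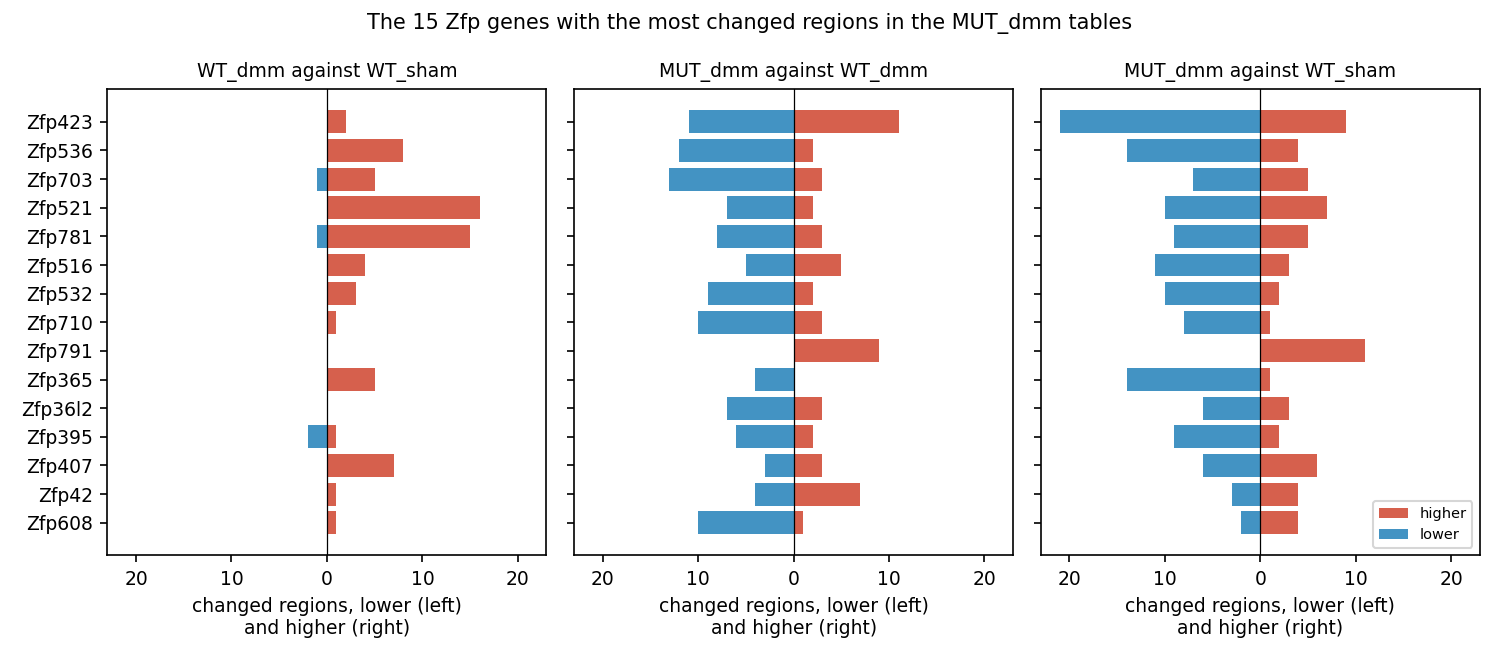
Numbers of changed regions (x axis), lower in the first-named group to the left and higher to the right, for the 15 Zfp genes (y axis) with the most changed regions in the MUT_dmm tables. Zfp791 has higher regions only in both MUT_dmm panels, Zfp423 has 11 of each kind against WT_dmm and 21 lower against WT_sham, and Zfp521 leads the first panel with 16 higher.

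Genes in clusters, those with at least 3 other Zfp genes within 500 kb, were close in direction to the rest: 31.0% of their changed regions were higher in MUT_dmm against WT_dmm and 35.6% for the other Zfp genes, 42.8% and 37.8% in MUT_dmm against WT_sham, and 95.7% and 93.4% in WT_dmm against WT_sham. Clustered Zfp genes include near-identical copies, and the sources used here do not say how reads that fit several copies were placed. A pair of Zfp97 regions on chromosome 17 had nearly equal reads in every library of MUT_dmm against WT_sham and may be such copies, so its count of regions is uncertain.

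The share of higher Zfp regions varied by chromosome in MUT_dmm against WT_sham. On chromosome 13, 34 of 53 Zfp regions were higher (64.2%, and 45.9% elsewhere on it), and on chromosome 17, 42 of 78 (53.8%, and 38.1%). On chromosome 10, 9 of 42 were higher (21.4%, and 42.7%), and on chromosome 7, 37 of 132 (28.0%, and 39.3%). Much of the chromosome 10 count came from Zfp365, with 1 higher and 14 lower, and Zfp781, with 5 higher and 9 lower. Against WT_dmm 3 of 24 on chromosome 10 were higher (12.5%, and 31.1%), and the shares on chromosomes 13, 17 and 7 were 29.8%, 33.8% and 36.5%, with 32.9%, 32.9% and 34.9% elsewhere on them. Zfp regions of a chromosome lie close together and are not independent, so no test was made.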

How the data were processed

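5hmC was profiled at CCGG sites in 13 labelled samples, of which 3 WT_dmm, 3 WT_sham and 2 distinct MUT_dmm libraries enter here. The submitters' processing notes name HISAT2 2.1.0 and the build mm10, with Trim Galore 0.5.0, bcl2fastq 2.20.0, bedtools and SAMtools as other tools, and no region caller. The deposited tables join 3 normalized counts per group in a cell, give the group mean as a coverage signal, and, per the file headers, carry p-values and adjusted p-values of the region and its best window. No region has a window p-value above 0.0001, which leaves out regions where groups did not differ.

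From the means of distinct libraries, log2 differences were computed with a pseudocount of 1 and folds without one. limma 3.58.1 (moderated test with a trend, Benjamini-Hochberg over all listed regions) was checked on simulated data. Count models were not run on these already normalized, preselected values. Intervals are exact (Clopper-Pearson) at 95% over regions, taken as independent although neighbours are not; they leave out the spread between libraries. RefSeq tables of GRCm38.p6 gave promoter windows. Named were the 5 genes with the most regions each way, the 5 regions each way of smallest adjusted p whose libraries did not overlap without the near-empty one, up to 6 list genes and 4 promoters per comparison. Members and lists were chosen with earlier results of these data known. Other libraries, scalings and filters were tried as given in the closing section.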

Additional observations from a re-analysis of the deposited data

How the results depend on the processing

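No paired analysis was possible because the columns carry no replicate numbers. Leaving out each library in turn moved the share of higher regions over 66.4% to 95.2% in WT_dmm against WT_sham, 33.2% to 52.3% in MUT_dmm against WT_dmm and 37.6% to 39.6% in MUT_dmm against WT_sham. In the same order, the regions without overlap ran over 8 to 339, 308 to 527 and 647 to 674, beside 8, 296 and 627 with all libraries. By construction this count can only stay or rise, since the changed regions and their called directions were kept. Calls by limma ran over 0 to 320, 0 to 99 and 229 to 552. The share at promoter windows, an alternative chosen after seeing the data, ran over 66.7% to 83.3%, 77.1% to 81.2% and 68.9% to 71.1%. With regions of mean 10 or more only, the shares were 60.7%, 64.9% and 61.3%, but this mean includes the first-named group, so regions high there pass more easily; the regions without overlap were 182 and 245 in the MUT_dmm comparisons, with 0 limma calls against WT_sham. In the 2 upper bins of level in the second-named group alone, chosen after seeing the data, the shares were 88.8%, 52.0% and 47.0%. With genes assigned from RefSeq bounds the shares were 91.3% and 42.1% in the first and second comparison, with 387 regions without overlap and 233 limma calls against WT_sham. At an adjusted p under 0.001 the shares were 98.4% and 28.4%, with 1 region without overlap in WT_dmm against WT_sham and 299 in MUT_dmm against WT_sham. With 1 region a gene, 101 and 224 regions did not overlap in the MUT_dmm comparisons, with 129 limma calls against WT_sham; fewer regions enter by construction. Of 55 named regions, 2 turned, both without the third-listed WT_dmm library: the difference WT_dmm minus WT_sham ran over -1.10 to 12.4 normalized counts at Zfp704 and -1.37 to 7.48 at Zfp386. The cause of these shifts was not tested. Depth limits the near-empty WT_dmm and the shallower MUT_dmm library, where 3 reads come to 28.3 to 47.0 and 10.7 to 28.3 normalized counts. In WT_dmm against WT_sham, 3 reads come to 4.00 and 3.12 in the other WT_dmm libraries, near or above most sham levels.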
